A study of Mus musculus with 786 samples.

Results

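Procr, Ly6a, Fgd5, Robo4, Tek, Slamf1, Emcn and Esam are 8 genes that are used as markers of blood stem cells, of endothelium or of both. They were chosen by name, with earlier results of these data known. All 8 stood under these symbols among the 21664 genes of the single-cell tables. In the bulk table of 18855 genes 7 were found by symbol, and Esam was found as Esam1 under the same RefSeq accession. The series profiled early blood-forming cells from the bone marrow of C57BL6 mice aged 6 to 8 weeks, both cell by cell and in sorted bulk samples. Normal and bled mice were used, with no other genotype or agent named. Haematopoietic stem cells (HSC) carried the sort label CD48-CD150+CD135-CD34-, and the first multipotent precursors (MPP1) carried CD48-CD150+CD135-CD34+. The single cells came from 7 plates of 96 wells: 3 of HSC, 2 of MPP1, 1 of HSC from bled mice and 1 of MPP1 from bled mice, numbered here as plates within each group.

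Blood stem cells and endothelial cells arise from a shared embryonic source and keep some surface proteins in common. In adult marrow such proteins are used to sort stem cells, and their RNA is commonly read as a sign of the stem cell state. Not all of the 8 products lie on the cell surface, since Fgd5 encodes a cytoplasmic exchange factor that activates the small GTPase Cdc42. CD150, the product of Slamf1, was part of the sort label of HSC and of MPP1 alike, so its presence in these cells was set by the sort.

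A cell entered when its well was labelled with 1 cell and at least 1000 genes reached FPKM 1 (sequenced fragments per unit of transcript length, relative to the library's mapped total). Of 460 wells labelled with 1 cell, 373 entered, with 48 to 73 cells per plate and plate medians of 1969 to 3046.5 genes. Read depth is unknown, and the intervals on shares of cells are exact binomial ones (Clopper-Pearson, 95%) that cover counting error only. The plate was the replicate, and the labels do not tie cells to single mice, so the p-values measure the spread between plates. HSC plate 3 stands in a table of its own, and the note on its cells mentions both normal and bled mice. It was therefore kept out of the main tests and is given beside them. Plate 3 also had the lowest plate medians of genes (1969) and of summed FPKM (210791), and their part in its values was not tested. HSC plate 1 was also run a second time, and its columns could hold either run. The 7 plates share 84 index pairs, which are plate positions and not shared cells. Cd34 RNA, whose product divides the 2 sorts, had a mean of 33.1 to 48.2 FPKM on the 4 HSC plates, bled included, and 66.5 to 86.8 on the 3 MPP1 plates. Markers of endothelium were low: 3 of 15 listed genes had a mean of FPKM 1 over the 4 normal plates of HSC and MPP1 (Tie1, Pecam1 and Egfl7). The summed mean of the 15 genes was 20.2 to 64.5 FPKM over the 7 plates. Flt1 and Sox17 were listed at 0 on every plate, and Cdh5 was listed at 0 on all but MPP1 plate 2. Ramp2 was listed at 0 on HSC plates 1 to 3 and MPP1 plates 1 and 2. Its mean was 15.7 FPKM in bled HSC and 3.44 in bled MPP1. A mean of FPKM 1 was reached by 2 of the 15 genes in bled HSC and by 4 in bled MPP1.

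The RefSeq sequences just before the annotated starts of Procr, Fgd5 and Emcn are shown because each pair of these 3 genes lay above the product of its shares on HSC plates 1 to 3, a pattern that 15.9% of all pairs of genes also had and that not all of these pairs kept in bled HSC (values further on). Each line gives the bases of the GRCm38.p6 window that lie before the first annotated base of the gene, and capitals mark GGAA or its reverse complement TTCC, the core of the motif read by ETS factors.
Procr, chr2:155750967-155751124, + strand: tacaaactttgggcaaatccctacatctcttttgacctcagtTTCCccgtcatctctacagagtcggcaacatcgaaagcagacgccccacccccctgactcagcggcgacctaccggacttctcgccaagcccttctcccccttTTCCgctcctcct
Fgd5, chr6:91978715-91978826, + strand: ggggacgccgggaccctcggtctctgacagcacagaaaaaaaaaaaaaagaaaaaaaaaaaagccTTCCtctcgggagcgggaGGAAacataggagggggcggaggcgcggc
Emcn, chr3:137340828-137341061, + strand: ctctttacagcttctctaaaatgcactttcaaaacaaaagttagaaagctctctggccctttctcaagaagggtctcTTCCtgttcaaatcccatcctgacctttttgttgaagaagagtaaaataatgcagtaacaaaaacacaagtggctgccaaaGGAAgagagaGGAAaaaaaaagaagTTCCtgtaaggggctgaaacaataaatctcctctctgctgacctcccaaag
Promoter windows matched 6 of the 8 genes, without Ly6a and Esam. The motif counts use the 250 bases before the start given in the promoter table, which for some genes lies inside the annotated gene: only 47 of these bases for Tek, and 249 for Slamf1, come before its first annotated base. In this window GGAA on either strand was found in 6 of 6, as in 93.4% of 32851 promoters, but the part before the first annotated base held none for Tek and Robo4. The GATA letters AGATAA were found on either strand in none of the 6, against 9.99% of all promoters. The RUNX letters TGTGGT were likewise found in none, against 14.0%. The GC box GGGCGG was found in Fgd5 alone of the 6 (32.7% of all), and the E-box CAGCTG in Procr and Robo4 (13.0% of all). The GC content of the window was 71.6% for Fgd5, 61.6% for Procr and 40.8% for Emcn, around a median of 52.4% for all. A match describes these letters only. Robo4 and Esam are neighbours on chromosome 9, 114 kb apart with Robo3 and Msantd2 between them, by the RefSeq order of GRCm38.p6.

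The first question was whether the genes were seen in cells above the wells that held none. Ly6a and Esam were the most widely detected, in 57.1% and 38.9% of the 373 cells, and Procr was found in 28.7%. The other 5 genes were found in 13.1% to 16.1% of cells. In the 150 wells labelled with no cell, the shares ran from 2.67% (Robo4) to 14.0% (Ly6a). Ly6a, Emcn and Esam were found in a larger share of cells than of empty wells on 7 of 7 plates, which held for 51.3% of all 13590 genes. Procr, Robo4, Tek and Slamf1 did so on 6 plates and Fgd5 on 5.

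Some plates had high values in the empty wells. Procr was at FPKM 1 or more in 30.8% of the 13 empty wells of MPP1 plate 2, above the 18.8% of its cells, and the mean of those wells was 47.8 FPKM. On the bled HSC plate Procr was found in 16.7% of empty wells, with a mean of 40.0 FPKM. Ly6a was found in 33.3% of the 21 empty wells of HSC plate 1, with a mean of 89.3 FPKM. In the 11 empty wells of HSC plate 3 the mean of Ly6a was 2234 FPKM although only 9.09% of them held it. Of the 150 empty wells, 20 held 1000 genes or more. With only the empty wells under 1000 genes, Procr and Robo4 also exceeded them on 7 of 7 plates, and the share of all genes that did so was 55.7%.

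**Figure D1:**
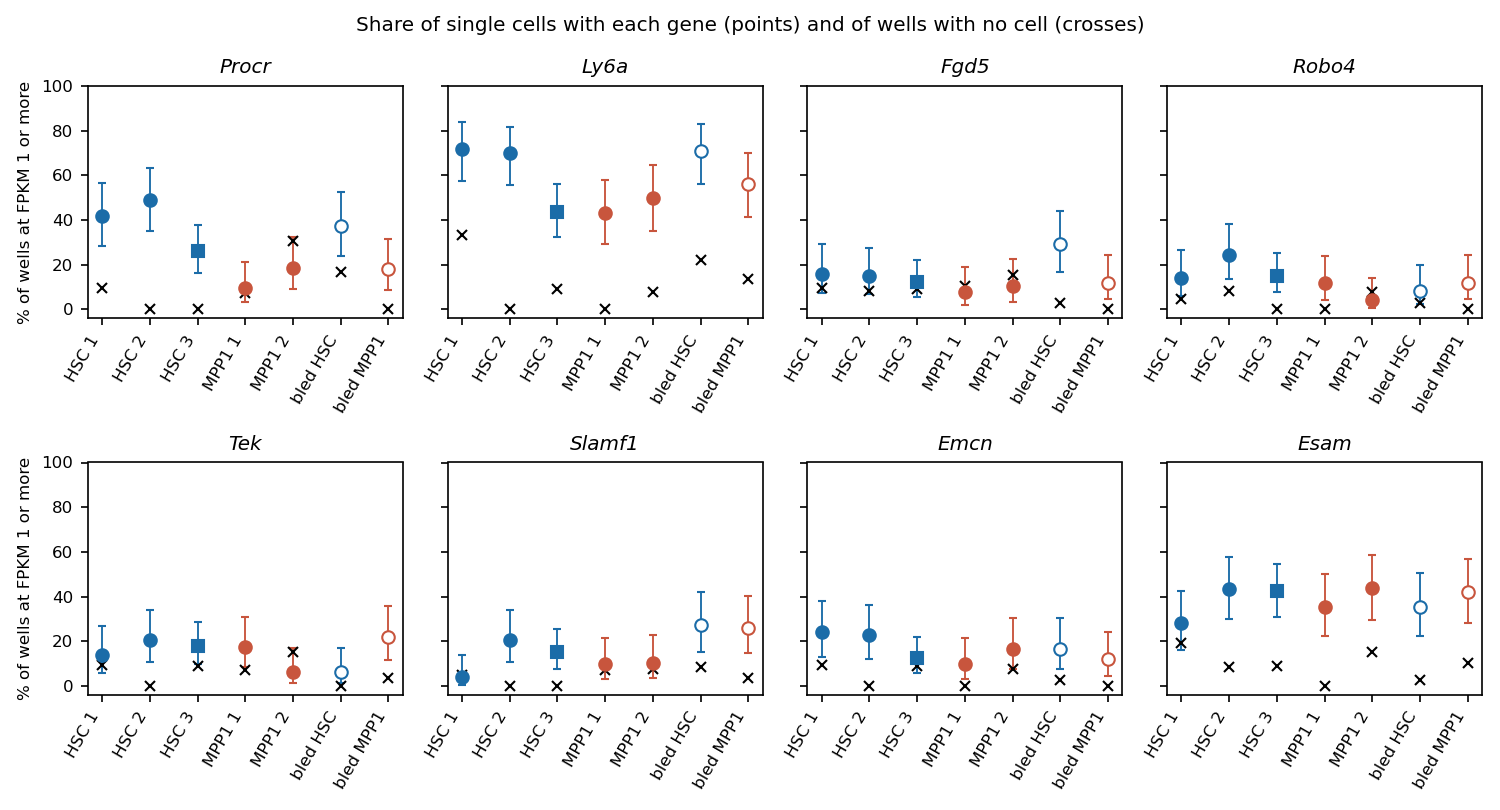
Share of wells (%, y axis) in which each gene reached FPKM 1, by plate (x axis). Blue points are HSC, red points MPP1, open points bled mice, the square is HSC plate 3, bars are exact 95% binomial intervals, and crosses are the wells labelled with no cell. Ly6a and Procr sit higher on HSC plates 1 and 2 than on both MPP1 plates, and the cross for Procr on MPP1 plate 2 lies above its point.

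MPP1 were compared with HSC to ask how the genes differ at the first step away from the stem cell. Mean levels of Ly6a, Procr, Fgd5, Robo4 and Emcn were lower on both MPP1 plates than on HSC plates 1 and 2, those of Tek and Esam overlapped, and Slamf1 was higher on both MPP1 plates. None of the 8 differences in level passed limma's adjusted threshold of 0.05, which 0.0102% of 9833 genes did (1 gene, Snora30, named after its value was seen, and 0 without any 1 of the 4 plates). At an unadjusted p under 0.05, 5 of the 8 were lower, against 4.22% of all genes. Both MPP1 plates lay under both HSC plates for 5 of the 8 genes, against 19.9% of all genes. With HSC plate 3 added to the HSC side, 4 of the 8 still lay apart (Procr, Ly6a, Fgd5 and Robo4), against 11.8%. All 8 passed the filter on low levels (a mean of FPKM 1 over the 4 plates), although Robo4 had a mean under FPKM 1 in MPP1 and so passed through HSC. Robo4 is part of the counts of 5 and of 4 above. The median log2 difference of the 8 was -1.62, and that of all genes tested was -0.04. The 8 genes were chosen with earlier results of these data known, so the counts and medians given here are descriptions.

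The share of cells with a gene, which 1 very high cell cannot set, was compared in the same plates. Procr was found in fewer MPP1 than HSC and was the 1 of the 8 genes that passed (limma, adjusted p = 0.0468), where 0.399% of 9014 genes did (36 genes). The count of 36 became 203 without HSC plate 2, and 4 and 7 without MPP1 plates 1 and 2. Both MPP1 plates had smaller shares than both HSC plates for 5 of the 8 (Procr, Ly6a, Fgd5, Robo4 and Emcn), against 15.3% of all genes. With HSC plate 3 beside them this held for 3 (Procr, Fgd5 and Robo4), against 5.1%. These counts too are descriptions of genes chosen with earlier results known.

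Procr encodes the endothelial protein C receptor, which binds protein C on vessel walls and marks stem cells in marrow. It was found in 42.0% of the cells of HSC plate 1 (interval 28.2 to 56.8%), in 49.1% of plate 2 (35.1 to 63.2%) and in 26.0% of plate 3. MPP1 plate 1 had it in 9.80% of cells (3.26 to 21.4%) and MPP1 plate 2 in 18.8% (8.95 to 32.6%). The shares themselves of HSC plates 1 and 2 did not overlap those of MPP1, and plate 3 lay between them. The intervals of HSC plate 1 and MPP1 plate 2 did overlap. On MPP1 plate 2 the empty wells held Procr more often, at 30.8%, so its share there was not above that of all empty wells. Of those 13 wells, 4 held 1000 genes or more, and the share of cells was above that of the remaining wells. The mean share was 45.5 ± 4.99% in HSC and 14.3 ± 6.33% in MPP1 (2 plates each, ± SD). The difference in log2 odds was -2.31 (SE 0.54). The call was lost with detection at FPKM 5 (adjusted p = 0.102), without a filter on the share (0.539), without MPP1 plate 1 (0.998) or MPP1 plate 2 (0.175), and with HSC plate 3 as a further HSC plate, which was tried only once the data were known (0.205).

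The mean level of Procr was 50.7 FPKM on HSC plate 1, 53.1 on plate 2 and 28.0 on plate 3. It was 18.9 FPKM on MPP1 plate 1 and 24.6 on MPP1 plate 2. The MPP1 means lay under all 3 HSC means, with plate 3 close to MPP1 plate 2. The log2 difference in level was -1.23 (SE 0.55), and limma's adjusted p was 0.721. A single cell held 40.2% and 47.6% of the sum on the MPP1 plates, against 19.0% and 23.5% for HSC plates 1 and 2. On MPP1 plate 1 the 5 cells with Procr had a median of 177 FPKM, against 49.0 in the 21 such cells of HSC plate 1 and 28.5 in the 9 of MPP1 plate 2.

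Ly6a encodes Sca-1, a small protein held in the membrane by a lipid anchor and used to sort mouse stem cells. Its mean level was 422 FPKM on HSC plate 1, 314 on plate 2 and 159 on plate 3, against 72.9 and 57.1 on MPP1 plates 1 and 2. It was the highest of the 8 genes on every plate, and its lowest HSC plate was above both MPP1 plates. HSC plates 1 and 2 averaged 368 ± 76.3 FPKM, and the MPP1 plates averaged 65.0 ± 11.2 (± SD over 2 plates). The log2 difference was -2.48 (SE 0.42), the smallest unadjusted p of the 8, and limma's adjusted p was 0.105. It passed when genes under a mean of FPKM 5 were left out (adjusted p = 0.0450), when log2 values were averaged over cells (0.0106), and when the highest cell of each gene and plate was left out, also tried only once the data were known (0.0230). Over all alternatives the adjusted p ran from 5.71e-05 to 0.928.

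On HSC plates 1 and 2, 72.0% and 69.8% of cells held Ly6a. The MPP1 plates had 43.1% and 50.0%, and HSC plate 3 had 43.8%. The share on plate 3 thus fell among the MPP1 plates, and the difference in share between HSC plates 1 and 2 and MPP1 was -1.45 in log2 odds (SE 0.52, limma adjusted p = 0.424). Among the cells that held Ly6a, the median was 567 and 200 FPKM on HSC plates 1 and 2 and 71.2 and 85.1 on the MPP1 plates. Both the number of cells with Ly6a and the level in those cells were thus lower on the MPP1 plates than on HSC plates 1 and 2.

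Genes of the interferon response had lower means in MPP1 beside Ly6a, and 0 of them passed limma's adjusted threshold. All 19 listed genes were tested and had lower means, against 51.6% of all genes. At an unadjusted p under 0.05, 15 were lower, against 4.22%, and their median log2 difference was -1.84. The list was chosen with earlier results known, so this is a description. Their summed mean was 3447 and 2579 FPKM on HSC plates 1 and 2, 1658 on plate 3, and 1024 and 673 on the MPP1 plates. Rsad2, an antiviral enzyme, had means of 24.6 and 94.2 FPKM on HSC plates 1 and 2 and 9.16 and 0.512 for MPP1 (log2 difference -3.65, SE 0.94). Zbp1, which senses foreign nucleic acid, stood at 27.9 and 13.7 FPKM in HSC and at 0.636 and 0 in MPP1, so that it, like Mx1, was tested only through HSC. Within plates, cells with Ly6a held more of the 19 genes than cells without it on 7 of 7 plates: 7.70 against 5.31 genes on HSC plate 2, and 3.83 against 3.71 on MPP1 plate 2. The median number of all genes was higher in the cells with Ly6a on 4 of the 7 plates. How many other genes divide the cells in the same way was not counted. Whether the interferon genes have a part in the Ly6a difference was not tested.

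**Figure D2:**
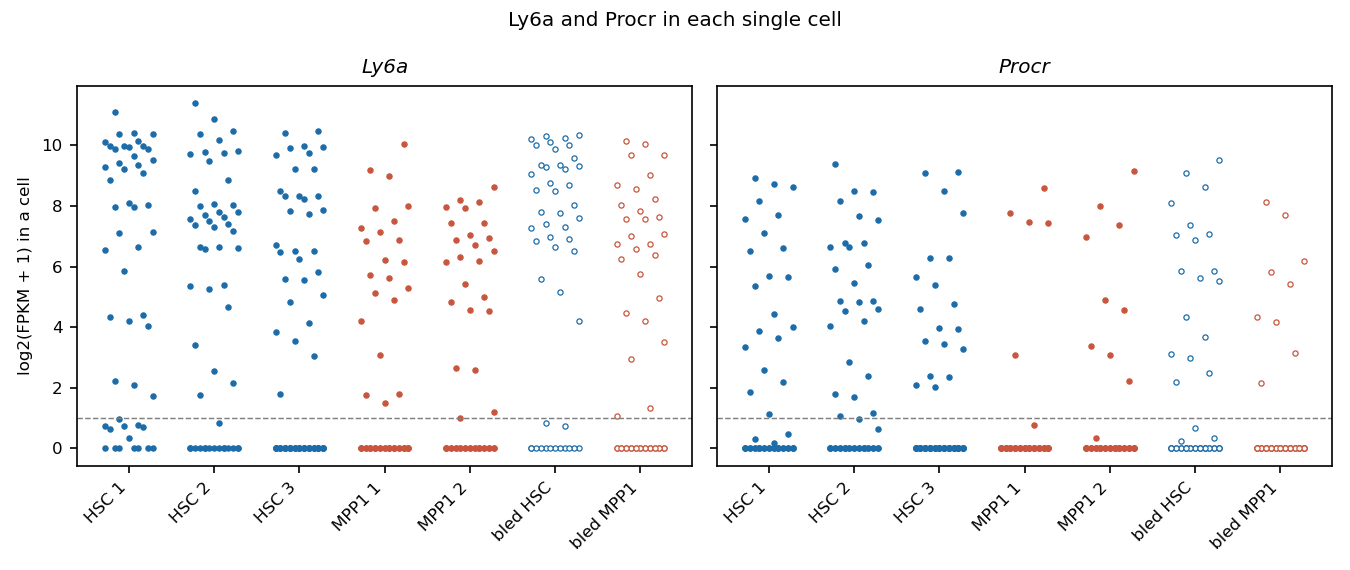
Each point is 1 cell, with the plate on the x axis and log2(FPKM + 1) of Ly6a or Procr on the y axis. The dashed line is FPKM 1, colours are as for the plot of shares, and Ly6a shows both more cells above the line and higher cells on HSC plates 1 and 2 than on the MPP1 plates.

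Fgd5 marks stem cells in reporter mice. Its mean was 17.5 FPKM on HSC plate 1, 11.0 on plate 2 and 3.17 on plate 3, against 1.93 and 2.28 on MPP1 plates 1 and 2. The groups did not overlap, but 81.2% of the sum on HSC plate 2 came from 1 cell, and without it that mean was 2.10 FPKM. The log2 difference was -2.27 (SE 0.85, limma adjusted p = 0.667), and -0.49 was the value nearest to 0 among the alternatives. Fgd5 was detected in 16.0%, 15.1% and 12.3% of HSC on plates 1 to 3 and in 7.84% and 10.4% of MPP1 plates 1 and 2. On both MPP1 plates the empty wells held it more often, at 10.7% and 15.4%, so its MPP1 shares were not above background.

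Robo4, a guidance receptor best known from vessel walls, had means of 8.96, 11.4 and 3.30 FPKM on HSC plates 1 to 3. The MPP1 plates had 1.77 and 0.107 FPKM. The 2 groups did not overlap, the log2 difference was -2.67 (SE 0.96), the widest of the 8, and limma's adjusted p was 0.662. With log2 values averaged over cells it was -0.71. Cells with Robo4 made up 14.0%, 24.5% and 15.1% of HSC plates 1 to 3, and 11.8% and 4.17% of the MPP1 plates. On MPP1 plate 2 that is 2 cells, with an interval of 0.509 to 14.3%, and the empty wells stood at 7.69%.

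Emcn encodes endomucin, a sialoglycoprotein of capillary and venous endothelium. Its means were 74.6 and 20.0 FPKM on HSC plates 1 and 2 but 7.40 on plate 3, among the MPP1 values of 7.36 and 10.7. The log2 difference for HSC plates 1 and 2 was -2.01 (SE 0.72, limma adjusted p = 0.662). It was -1.09 without HSC plate 1, -2.94 without HSC plate 2 and -0.59 with log2 values averaged over cells. Shares were 24.0%, 22.6% and 12.3% in HSC and 9.80% and 16.7% in MPP1.

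Tek encodes the angiopoietin receptor Tie2, which is tied to stem cell quiescence in marrow. Its means were 12.9, 5.68 and 10.6 FPKM on HSC plates 1 to 3 and 8.29 and 3.77 on the MPP1 plates, so the groups overlapped (log2 difference -0.54, SE 0.86, limma adjusted p = 0.945). The difference ran from -1.07 without HSC plate 2 to -0.0066 without HSC plate 1. Its shares overlapped too, at 14.0 to 20.8% in HSC and 17.6% and 6.25% in MPP1.

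Esam, an adhesion molecule of endothelial junctions and platelets, had means of 61.1, 36.6 and 72.2 FPKM on HSC plates 1 to 3 and 21.5 and 38.9 on MPP1 plates 1 and 2. MPP1 plate 2 lay above HSC plate 2 (log2 difference -0.69, SE 0.57, limma adjusted p = 0.857). The difference ran from -1.10 without MPP1 plate 2 to -0.28 without MPP1 plate 1. Shares were 28.0%, 43.4% and 42.5% in HSC and 35.3% and 43.8% in MPP1, with a difference of 0.25 in log2 odds (SE 0.53). The HSC and MPP1 shares of Esam thus overlapped.

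Slamf1, whose product CD150 is a self-binding receptor of the SLAM family, was the 1 of the 8 with a higher mean in MPP1. Its means were 1.99, 6.84 and 20.2 FPKM on HSC plates 1 to 3 and 8.52 and 14.4 on MPP1 plates 1 and 2. Plate 3 was the highest of these, and 54.7% of its sum came from 1 cell. The log2 difference was 1.32 (SE 0.87, limma adjusted p = 0.836), and 0.63 without HSC plate 1. Slamf1 RNA was found in 4.00%, 20.8% and 15.1% of HSC and in 9.80% and 10.4% of MPP1, although every one of these cells had been sorted as CD150+. HSC plate 1 had it in 2 of 50 cells, at the 4.76% of its empty wells.

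**Figure D3:**
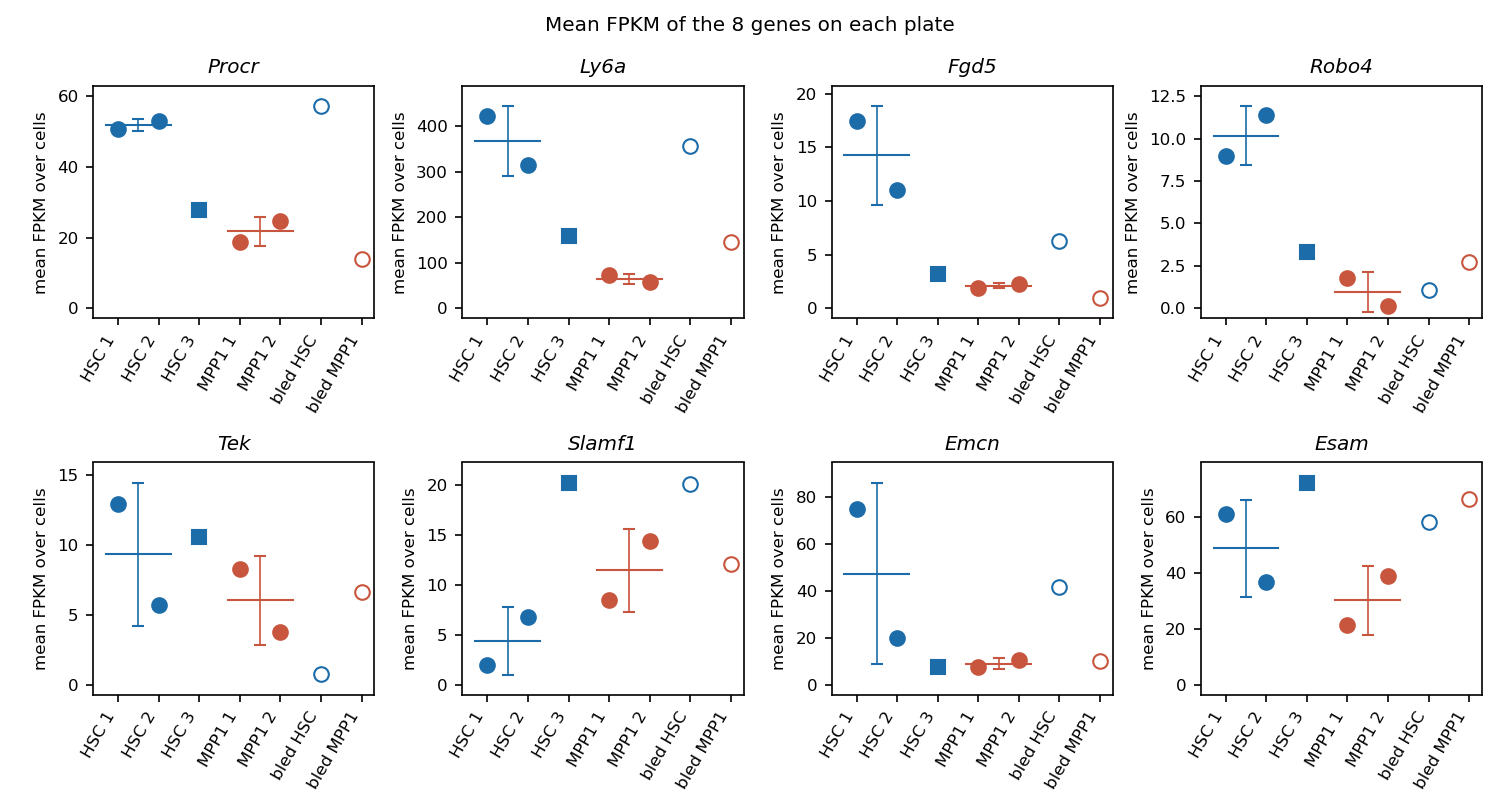
Mean FPKM over the cells of each plate (y axis, linear) for the 8 genes. Blue is HSC, red MPP1, open points are bled mice, the square is HSC plate 3, and lines with bars are the mean and SD of plates 1 and 2 (n = 2). Ly6a, Procr, Fgd5, Robo4 and Emcn have both red filled points under both blue filled circles, and the square lies nearer to the red points in these 5 genes.

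Genes that act with the 8 were read from lists in the same comparison, and none of them passed limma's adjusted threshold. Of all 9833 genes, 51.6% had a lower mean in MPP1. A gene near 0 in 1 group, such as Cd48, Slamf8, Thbd or Tie1, was tested only through the group where it was high, so the counts below are descriptions. Of 19 ligands and partners, 9 were tested, 4 with lower and 5 with higher means in MPP1 (median 0.05 on the log2 scale). F2r, the thrombin receptor that signals beside Procr, had means of 6.49 and 8.18 FPKM on HSC plates 1 and 2 and 15.2 and 106 for MPP1 (log2 difference 2.33, SE 0.82). Tie1, the co-receptor of Tek, stood at 13.4 and 2.88 FPKM in HSC and 0.380 and 0.774 in MPP1. Thbd, which with thrombin activates protein C, was at 0 and 0.0212 FPKM in HSC and at 2.67 and 2.38 in MPP1. Of 8 other SLAM genes 4 were tested, 3 lower and 1 higher: Cd48, whose product the sort excluded, was listed at 0 and stood at 0.488 FPKM on HSC plates 1 and 2, against 9.48 and 3.31 on the MPP1 plates. Of 10 other Ly6 genes 4 were tested and all had lower means. Ly6c1 and Ly6c2 stood under FPKM 1 on both MPP1 plates and were tested only through HSC. Their highest plate was HSC plate 1, at 16.1 and 4.12 FPKM. Ly6e stood at 451 and 409 FPKM on HSC plates 1 and 2 and at 285 and 144 on the MPP1 plates (log2 difference -1.08, SE 0.42). Of 17 stem cell regulators 12 were lower and 5 higher, with a median of -0.18, and Mllt3 differed by -1.51 (SE 0.59). Of the megakaryocyte markers 4 of 6 were tested, 1 lower and 3 higher, with a median of 1.78. Pf4, a platelet chemokine, had means of 12.3 and 38.5 FPKM on HSC plates 1 and 2 and 230 and 138 on the MPP1 plates. Gp9, a subunit of the platelet von Willebrand factor receptor, went the other way, at 56.7 and 32.0 FPKM in HSC and 10.4 and 30.3 in MPP1. The part of megakaryocyte genes in the values of Slamf1, Tek and Esam was not tested.

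Bled mice were compared with normal mice over 6 plates, HSC plate 3 left out, with cell type as a term and 1 bled plate per cell type. No member passed limma's threshold, and neither did any of the 10017 genes (0%), with 586 genes but 0 of the 8 at an unadjusted p under 0.05. Slamf1 had the largest positive difference, 1.12 (SE 0.73), which was 0.12 without the bled HSC plate and 2.12 without the bled MPP1 plate. Tek had the largest negative one, -1.12 (SE 0.82), which was 0.19 without the bled HSC plate. Slamf1 was found in 27.1% of bled HSC and 26.0% of bled MPP1, above the highest normal plate, 20.8%. This was singled out after its values were seen, and 8.58% of the 9014 genes tested for shares had both bled plates above all 5 normal ones. The bled MPP1 plate also had the largest median number of genes, 3046.5, and its part in this was not tested.

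For Procr and Ly6a the bled HSC plate lay nearer to normal HSC plates 1 and 2 than to the MPP1 plates. Procr stood at 57.2 FPKM and 37.5% of cells in bled HSC and at 14.0 FPKM and 18.0% in bled MPP1. Ly6a stood at 357 FPKM and 70.8% in bled HSC and at 147 FPKM and 56.0% in bled MPP1. In the bled plates, 5 of the 8 genes had a lower mean in MPP1 than in HSC (Procr, Ly6a, Fgd5, Slamf1 and Emcn), as did 46.3% of all genes, with 1 plate each and no replicate check.

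Fgd5 was found in 29.2% of bled HSC (interval 17.0 to 44.1%), its highest share, and in 12.0% of bled MPP1. Its bled means were 6.30 and 0.919 FPKM. Emcn had 41.7 and 10.2 FPKM. Esam was somewhat higher in bled MPP1, at 66.3 against 58.0 FPKM. Robo4 and Tek also had higher means there, at 1.08 and 0.778 FPKM in bled HSC and 2.73 and 6.60 in bled MPP1. The effect of bleeding in MPP1 minus that in HSC was 3.51 for Robo4 (SE 1.48) and 2.63 for Tek (SE 1.46), where the spread comes from the normal plates alone, each bled group being 1 plate. No member passed the test of this difference, nor did any of the 10017 genes (0%, with 511 at an unadjusted p under 0.05).

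Co-detection was read in the 176 HSC of plates 1 to 3 as the number of cells with both genes at FPKM 1, beside the number that the product of their shares on each plate gives. Of 28 pairs, 6 (21.4%) lay above the product on 3 of 3 plates and 2 lay below it, near the 15.9% and 10.4% of pairs among 7472 genes found in 4 to 80% of these cells. That window was set after the shares of the 8 were seen, so that it holds all of them. Fgd5 and Emcn shared 12 cells where the product gave 4.84, with 5, 3 and 4 cells on plates 1, 2 and 3. Procr and Fgd5 shared 14 cells against 9.63, and Procr and Emcn 18 against 13.3. Each pair of these 3 genes, whose upstream sequences are printed above, lay above the product on each plate, and the 3 together were not counted.

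Procr and Ly6a shared 48 cells against 41.6, Ly6a and Fgd5 18 against 15.3, and Tek and Esam 14 against 12.3. Robo4 lay below the product on 3 of 3 plates with Procr (8 cells against 12.2) and with Ly6a (15 against 18.9). In bled HSC, which were not part of the count, Procr and Ly6a lay above the product again (15 against 12.8), and so did Procr and Fgd5 (7 against 5.25). Fgd5 and Emcn lay below it there (1 against 2.33), as did Procr and Emcn (1 against 3.00). Robo4 lay above it with Procr (2 against 1.5) and with Ly6a (4 against 2.83). The pairs thus did not all keep their side in bled HSC.

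**Figure D4:**
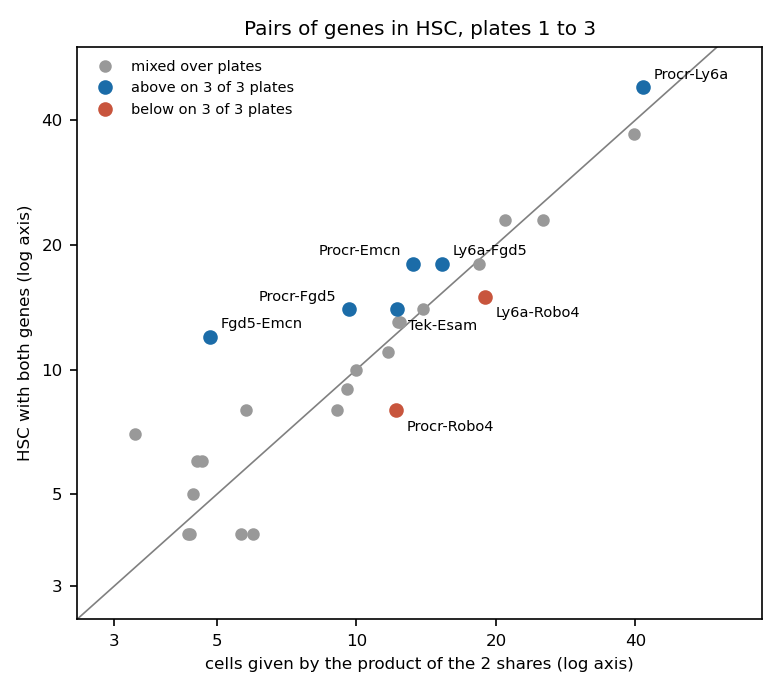
Each point is 1 of the 28 pairs of genes in 176 HSC, with the number of cells given by the product of the shares on the x axis and the number of cells holding both genes on the y axis (log axes, line of equality in grey). Blue pairs lie above the line on all 3 plates and red pairs below it on all 3, and Fgd5 with Emcn lies farthest above among the blue pairs (12 cells against 4.84).

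Most HSC held few of the 8 genes at once. The mean number was 2.14, 2.66 and 1.85 on HSC plates 1 to 3, 1.45 and 1.60 on MPP1 plates 1 and 2, 2.31 in bled HSC and 2.00 in bled MPP1. Cells with 3 or more were 30.0%, 47.2% and 24.7% of HSC plates 1 to 3, 13.7% and 16.7% of the MPP1 plates, and 43.8% and 36.0% of bled HSC and bled MPP1. No cell held more than 6. Cells with 3 or more also had more genes in all: medians of 2262, 2741 and 2045 genes on HSC plates 1 to 3, against 2104, 2587 and 1794 in cells with 0 or 1.

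The 18 bulk populations, 1000 cells and 1 library each, gave the levels outside the stem cell gates, with no test. In bulk, fewer cells of a type and less RNA per cell cannot be told apart. The bulk HSC library carries CD34+ in its label, as does bulk MPP1, yet its Cd34 was 25.2 FPKM against 1786 in MPP1. A gene is listed at exact 0 in 46.9 to 70.9% of the rows of each library, so a 0 need not mean absence.

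Procr, Robo4 and Emcn did not reach FPKM 1 in any bulk population. Each was highest in HSC, at 0.161, 0.215 and 0.524 FPKM, and was listed at 0 in 16, 15 and 15 of the 18. Robo4 was nearly as high in MPP2, at 0.187 FPKM. The bulk entry of Emcn is another RefSeq transcript than its single-cell entry, so its bulk and single-cell levels are not of the same entry. Fgd5 had 5.45 FPKM in HSC, 0.0134 in MPP1 and listed at 0 in the other 16. The 4 genes thus shared HSC as their highest population, at levels mostly near the floor of the table. Among 9685 genes that reached FPKM 1 in some library, 998 were highest in HSC or MPP1. Of the 5 members that reached it, 1 was (Fgd5). Ly6a, the highest of the 8 in single HSC, was at 0.0803 FPKM in bulk HSC and 0.626 in bulk MPP1. Under the same RefSeq entry its single-cell plates 1 and 2 averaged 368 FPKM in HSC and 65.0 in MPP1. Procr likewise averaged 51.9 FPKM in single HSC, against 0.161 in bulk. The cause of this gap was not tested, so bulk levels are not set against single-cell levels. The highest library of Ly6a was the one labelled CLP Sca1 high, where CLP stands for common lymphoid progenitor, at 5.81 FPKM, with 0.333 in the CLP library. That highest library held Flt3 at 4.51 and Kit at 2.73 FPKM, against 376 and 141 in CLP.

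Slamf1, Tek and Esam were highest in myeloid, megakaryocyte or erythroid progenitors, but not in all of them. In Mature Meg, PreCFU-E, CFU-E and ProEry the 3 genes were listed at 0 or at most at 0.177 FPKM, and Tek and Esam were listed at 0 in MEP. Slamf1 was highest in preMegE (11.4 FPKM, sorted as CD150+) and MEP (10.1), then in MPP1 (1.42) and HSC (1.36). Esam was at 33.1 FPKM in MKP, the megakaryocyte progenitor, at 17.9 in CMP, at 1.07 in MPP1 and at 0.198 in HSC. Tek was at 3.53 FPKM in MKP, 3.14 in CMP and 2.61 in MPP2, and at 0.236 in HSC. Esam and Tek thus shared their 2 highest populations.

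Fgd5 and Slamf1 were at least 2-fold higher in HSC than the median of the 13 populations other than HSC and MPP1 to MPP4, on the scale of FPKM + 1, as were 12.2% of 9685 genes that reached FPKM 1 in some library. Fgd5 reached FPKM 1 only through HSC, and both medians were listed at 0, so nothing is read from this count. The genes most like each of the 5 members that reached FPKM 1, over the 18 libraries, by Pearson's r of log2(FPKM + 1) among 7411 genes with a maximum of FPKM 5, were Tmc3, Zfyve9 and Col4a1 for Fgd5 (r = 1.00 each), Slfn5, Sec16b and Mfsd8 for Ly6a (0.974 to 0.970), Lhfp, Cbx8 and Tlr2 for Esam (0.940 or more), Parp12, Hdac5 and Gucy1a3 for Tek (0.918 to 0.855), and Ift122, 1700010I14Rik and Aqp11 for Slamf1 (0.873 to 0.831). These values rest largely on 1 or 2 libraries in which the gene is high.

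**Figure D5:**
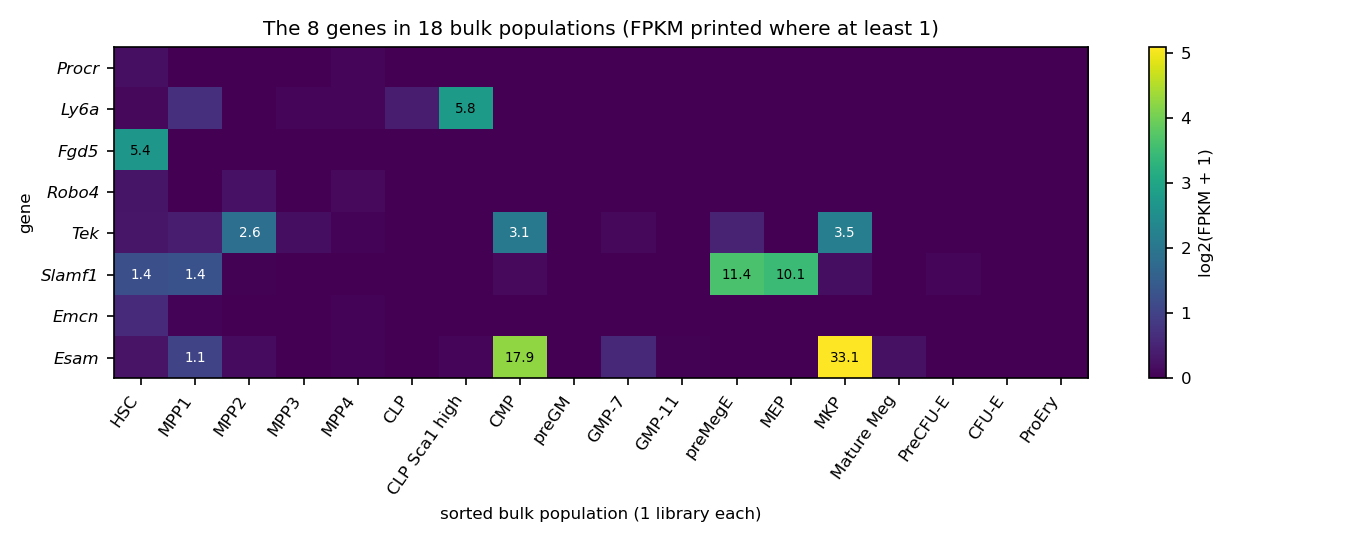
Levels of the 8 genes (rows) in 18 bulk populations (columns, 1 library each), as log2(FPKM + 1), with the FPKM printed where it is at least 1. Fgd5 is bright in HSC (5.45 FPKM), Ly6a in CLP Sca1 high (5.81), Slamf1 in preMegE and MEP, and Tek and Esam in CMP and MKP.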

How the data were processed

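The authors deposited FPKM values, 1 per gene and library; TopHat 1.3.3, Cufflinks 1.2.1 and the build mm9 are named per the submitters' processing notes, with Bowtie2 2.2.1 for HSC plate 3 in addition. The tables were made separately for normal plates, bled plates, HSC plate 3 and bulk. Low values did not fall on whole-read steps, so no count test was run. The 8 genes and the lists were chosen with earlier results of these data known. Per plate, log2(mean FPKM + 1) over cells went into limma (version 3.58.1, R 4.3.3) with an intensity trend, two-sided, and Benjamini-Hochberg adjustment over all genes, in genes with a mean of FPKM 1. Shares of cells were tested as log2((k + 0.5)/(n - k + 0.5)), k of n cells at FPKM 1, in genes with a mean share of 5%. Differences on the log2(FPKM + 1) scale understate low genes. All 8 genes are described, and per list up to 3 genes with the largest log2 difference were named. The tests were checked on simulated data. The alternatives changed the pseudocount (0.1), the filters, the detection level, the averaging, the scaling, the minimum of genes per cell (2000) and the plates used. Wells with 2 or more cells entered no comparison, and no doublet caller was run. The repeat run of 96 wells was not analysed here. Promoter sequences and gene order are RefSeq's, of GRCm38.p6.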

Additional observations from a re-analysis of the deposited data

Results flagged for a closer look

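Wells labelled with 2 or more cells were used in no comparison. In these 62 wells 4 of the 8 genes were detected at FPKM 1 in a share whose exact 95% interval lay above that of the 150 wells with no cell, as did 55.4% of the 12779 genes found in either kind of well. Ly6a was found in 66.1% of them (interval 53.0 to 77.7%), against 14.0% of empty wells and 57.1% of single cells. Esam was found in 46.8% (34.0 to 59.9%), against 8.00% and 38.9%. Procr was found in 27.4% (16.9 to 40.2%), against 9.33% and 28.7%, and Emcn in 24.2% (14.2 to 36.7%), against 3.33% and 16.1%. The wells are spread unevenly over plates, from 2 on HSC plate 2 to 16 on HSC plate 1, and no test was made.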

How the results depend on the processing

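Procr, Ly6a, Fgd5, Robo4 and Emcn kept a lower level and a smaller share in MPP1 under every alternative run for these comparisons. Most of these alternatives could not have turned the sign, since both MPP1 plates lay under both HSC plates for each of these genes. Leaving out 1 plate or changing the pseudocount then keeps the sign, and a changed filter or a replicate block keeps the difference itself. The sign was open to change in others, such as averaged log2 values and other detection levels. With HSC plate 3 added it was open only for Emcn in level and for Ly6a and Emcn in share. For the rest, both MPP1 plates lay under all 3 HSC plates. In level, the number of the 8 genes that passed was 0, and became 1 (Ly6a) with a filter at FPKM 5 or without the highest cell of each gene and plate, and 2 (Ly6a and Procr) with log2 values averaged over cells. All genes that passed numbered 1, against 0 with no filter, 6 with the filter at FPKM 5, 38 with averaged log2 values, 3 with upper quartile scaling, 8 without the highest cell and 0 without any 1 plate. Averaged log2 values turned Slamf1 (-0.0014) and Esam (0.070). In share, Procr no longer passed (0 of the 8) with detection at FPKM 5, no filter, without either MPP1 plate or with HSC plate 3 added. All genes that passed numbered 36, against 23 at FPKM 5, 0 with no filter, 17 with HSC plate 3 and 4 to 203 without 1 plate. Differences in log2 odds turned for Tek (0.049 without MPP1 plate 2, -1.49 without MPP1 plate 1), for Esam (-0.23 without HSC plate 1, -0.0026 without MPP1 plate 2, 0.73 without HSC plate 2) and for Slamf1 (-0.089 with detection at FPKM 0.1, -0.11 with cells of 2000 genes, -1.15 without HSC plate 1 but 1.25 without HSC plate 2, -0.16 with HSC plate 3). Same-numbered plates deviated with little in common over genes (correlation of same-numbered deviations 0.0423 over 9833 genes). This check cannot exclude a batch that same-numbered plates share for some genes. With a replicate block, 1 of the 8 genes (Ly6a) passed in level, among 58 genes, and 1 (Procr) in share, among 89.

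For bleeding, all genes that passed numbered 6 with averaged log2 values and 0 to 1 without 1 plate, with 0 of the 8 among them. Without 1 plate, differences ran from -0.59 without bled HSC to 0.14 without bled MPP1 for Procr, from -0.028 without bled MPP1 to 1.17 without bled HSC for Ly6a, from -2.42 to 1.09 for Robo4 and from -2.44 to 0.19 for Tek (lowest without bled MPP1, highest without bled HSC), and from -0.25 without HSC plate 2 to 0.54 without HSC plate 1 for Emcn. Slamf1, Esam and Fgd5 kept their signs without 1 plate. Slamf1 ran from 0.12 without bled HSC to 2.12 without bled MPP1. Esam ran from 0.29 without bled MPP1 to 1.17 without bled HSC, and Fgd5 from -1.03 without bled MPP1 to -0.69 without bled HSC. Differences also turned with averaged log2 values for Fgd5 (0.10) and Emcn (-0.042). Averaged log2 values, an alternative added after seeing the data for the effect of bleeding in MPP1 minus that in HSC, turned Procr (0.31), Fgd5 (-0.19) and Esam (-0.013). Empty wells under 1000 genes raised the genes above them on 7 of 7 plates from 3 to 5, and all genes from 6972 to 7566 of 13590. In bulk, 2 genes at least 2-fold higher in HSC became 4 with a pseudocount of 0.1, 1 against the mean of the 13 populations and 1 at 4-fold, while all genes went from 1181 to 1698, 786 and 657 of 9685. The cause of these changes was not tested. With 2 plates per group and unknown read depth, a missing call does not show that levels were alike.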
